A study of Mus musculus with 6 samples.

Results

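The p53 target genes and regulators described here are 32 listed genes, of which 30 were measured among the 18193 genes of the array with a gene symbol of their own. They were listed by symbol as targets of the transcription factor p53 or as proteins that control it. How closely each listed gene depends on p53 was not examined here. Each was read from its brightest single-symbol probe set, by the mean of the 6 arrays. Trp53, which encodes p53, and Fdxr, a mitochondrial ferredoxin reductase, were not analysed here. The measured genes were divided by role into 5 for feedback and control of p53, 10 for arrest of the cell cycle and stress, 11 for apoptosis and 4 for DNA repair.

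The samples were B cells from the spleens of 6 mice, 1 Affymetrix array each, per the series' design text and the labels. In 3 mice both copies of Crebbp were deleted (CBPΔ/Δ x EµBcl2, called Crebbp-deleted), and in 3 mice Crebbp was flanked by recombination sites (CBPF/F x EµBcl2, called Crebbp-floxed). The Bcl2 transgene, driven in B cells by the Eµ enhancer of the immunoglobulin heavy chain, was present in all 6, so there was no group without Bcl2 over-expression. The recombinase that deleted Crebbp, the ages of the mice and the state of their spleens are not given in the sources used here. Spleen cells had been frozen and thawed, and B cells were then enriched by removing CD43-bearing cells on beads.

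p53 is held at a low level by the ubiquitin ligase Mdm2, itself a p53 target, and is stabilised by DNA damage and other stress. It then activates genes that stop the cell cycle, repair DNA or start apoptosis. The acetyltransferases Crebbp and Ep300 bind p53, acetylate it and serve as its coactivators, and Bcl2 holds back the mitochondrial death pathway that the p53 targets Bbc3 and Pmaip1 engage. The comparison asked how the expression of these genes differed when Crebbp was lost in B cells that over-express Bcl2.

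The start regions of 4 members are shown because p53 and the CREB family, to which Crebbp was first found to bind, act through known DNA words. Each is a RefSeq window (build GRCm38.p6) from 250 bases before to 50 bases after an annotated transcription start, written 5′ to 3′ along the gene. Capitals mark matches on either strand to the p53 half-site or to the cyclic AMP response element TGACGTCA, and the motifs do not overlap in these windows. The half-site was searched as RRRCWWGYYY, where R is A or G, W is A or T and Y is C or T. Only exact matches are marked. Cdkn1a, Ccng1 and Mdm2 show half-sites and Plk2 shows a cyclic AMP element.
Cdkn1a (chr17:29090729-29091028, plus strand): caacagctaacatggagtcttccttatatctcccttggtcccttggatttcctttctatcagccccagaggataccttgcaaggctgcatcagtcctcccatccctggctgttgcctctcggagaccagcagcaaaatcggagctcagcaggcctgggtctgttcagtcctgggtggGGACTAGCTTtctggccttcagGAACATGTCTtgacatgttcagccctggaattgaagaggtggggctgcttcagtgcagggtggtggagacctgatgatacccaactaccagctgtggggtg
Ccng1 (chr11:40755237-40755536, minus strand): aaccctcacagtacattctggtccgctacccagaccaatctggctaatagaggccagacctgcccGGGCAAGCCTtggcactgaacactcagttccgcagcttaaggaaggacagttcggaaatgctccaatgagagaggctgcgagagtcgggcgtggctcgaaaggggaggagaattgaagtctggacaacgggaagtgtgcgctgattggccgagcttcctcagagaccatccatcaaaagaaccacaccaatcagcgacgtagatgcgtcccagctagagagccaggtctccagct
Mdm2 (chr10:117710709-117711008, minus strand): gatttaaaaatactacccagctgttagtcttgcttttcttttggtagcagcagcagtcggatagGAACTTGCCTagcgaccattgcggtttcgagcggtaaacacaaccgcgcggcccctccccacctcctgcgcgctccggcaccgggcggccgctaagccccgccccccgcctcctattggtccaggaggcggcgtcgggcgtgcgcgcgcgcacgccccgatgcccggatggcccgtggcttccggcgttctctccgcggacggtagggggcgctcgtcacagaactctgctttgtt
Plk2 (chr13:110394794-110395093, plus strand): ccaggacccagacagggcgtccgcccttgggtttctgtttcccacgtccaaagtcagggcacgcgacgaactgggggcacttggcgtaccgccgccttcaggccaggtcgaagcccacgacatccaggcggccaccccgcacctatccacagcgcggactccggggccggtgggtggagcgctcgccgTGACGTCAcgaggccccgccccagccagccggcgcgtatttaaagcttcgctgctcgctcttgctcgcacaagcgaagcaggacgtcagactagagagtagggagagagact
In Cdkn1a, which encodes the cell cycle inhibitor p21, the window lies at the upstream of its 2 annotated starts. It holds 2 half-sites, which begin 73 and 51 bases before that start, and the other window of Cdkn1a holds none. The 10 bases right after the second half-site miss the pattern only at their first base, so they are not marked. The half-site of Ccng1 begins 185 bases before the start, that of Mdm2 186 bases before it, and the element in Plk2 62 bases before it.

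RefSeq windows were found for 25 of the 32 members, 32 windows in all. A half-site was present in 11 of these windows (34.4%), against 8.36% of the 32851 windows in the table. By gene, 10 of 25 members (40.0%) held one, against 9.55% of 27025 genes. A pair of exact half-site matches at most 13 bases apart was found in 1 member window (3.12%), that of Cdkn1a, against 0.0731% of all windows. Pairs with an inexact half-site were not counted. The cyclic AMP element was found in 2 member windows (6.25%), those of Plk2 and of the phosphatase gene Ppm1d, against 1.79% of all windows. The 9 measured members with a half-site in a window had log2 differences from −0.45 to 0.50 with a median of 0.04. The 14 measured members whose windows held none ranged from −1.27 to 0.46 with a median of 0.10. The 2 ranges overlapped. A match is a run of letters and not a measured binding site, and p53 sites outside these windows were not searched.

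Expression is given as log2 intensity, a difference is Crebbp-deleted minus Crebbp-floxed, and a difference of 1 is a doubling. Groups were compared with limma over all 18193 genes, and a gene passed when its Benjamini-Hochberg adjusted p was under 0.05. Of the 30 measured members 0 passed, against 0.781% of all genes (142 genes; 0.544% higher and 0.236% lower in deleted samples). The lowest adjusted p among the members was 0.0837, and 10 of the 30 (33.3%) had an unadjusted p under 0.05, against 14.8% of all genes. Of these 8 stood higher in the deleted samples (26.7% of members, against 7.96% of all genes) and 2 stood lower (6.67%, against 6.84%). The median difference was 0.11 for the members and 0.01 for all genes, and 19 members were higher and 11 lower.

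The higher members were the p21 gene Cdkn1a, the RNA-binding protein gene Zmat3, the cyclin G1 gene Ccng1, the apoptosis genes Pmaip1, Bbc3, Phlda3 and Eda2r, and the translesion polymerase gene Polk. The lower members were the polo-like kinase genes Plk2 and Plk3. In 12 of 30 members (40.0%) the 2 groups did not overlap, against 21.2% of all genes. Of these 10 were higher in the deleted samples (33.3%, against 11.2%) and 2 were lower (6.67%, against 10%). The members were listed with earlier results of these data known and are related in function. The shares above were therefore compared as a description, with no test of the list. The shares over all genes were not matched for brightness, and 27 of the 30 members had a mean above the median of all probe set means.

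**Figure D1:**
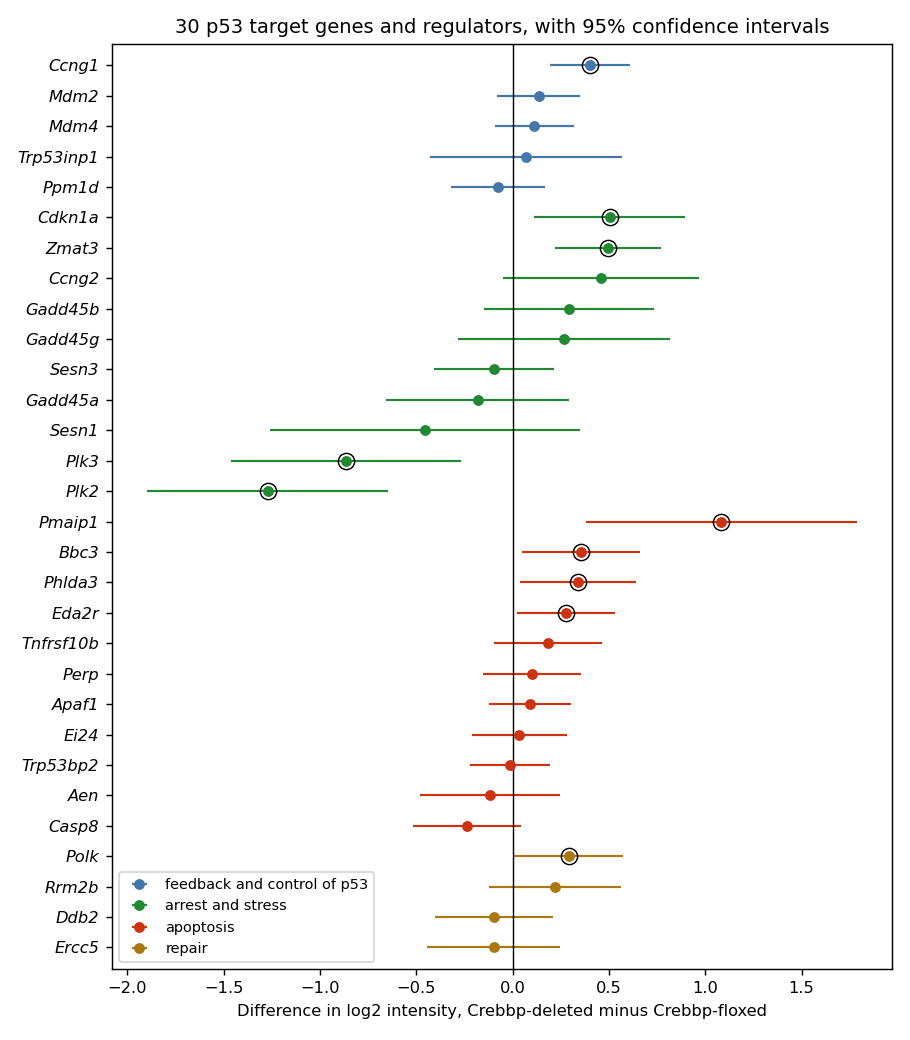
Difference in log2 intensity, Crebbp-deleted minus Crebbp-floxed, for the 30 measured members, in colours and blocks by role, with 95% confidence intervals from limma. Black rings mark the 10 members with an unadjusted p under 0.05, from Plk2 at −1.27 to Pmaip1 at 1.08; 0 members passed after adjustment.

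Feedback on p53 was represented by Ccng1, Mdm2, Mdm4, Ppm1d and Trp53inp1. Of these 4 were higher and 1 was lower, with a median of 0.11. An unadjusted p under 0.05 was found in 1, against 14.8% of all genes. Ccng1, a p53 target whose product recruits a phosphatase to Mdm2, had levels of 9.38, 9.39 and 9.52 in deleted samples 1 to 3, against 9.01, 9.09 and 8.98 in floxed samples 1 to 3. The groups did not overlap, and within a group the samples lay close together. The difference was 0.40 ± 0.09 (SE), a 1.32-fold higher level (limma adjusted p = 0.0994). All 3 of its probe sets were higher, the dimmer ones by less, at 0.17 and 0.21.

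Mdm2, the ubiquitin ligase that degrades p53, had levels of 8.01, 7.99 and 7.96 in deleted samples, against 7.74, 7.96 and 7.86 in floxed samples. The deleted samples were all above the floxed ones, but deleted sample 3 and floxed sample 2 were nearly level. The difference was 0.13 with a 95% interval from −0.08 to 0.35 (limma adjusted p = 0.556). Of its 3 probe sets 2 were higher, and the dimmest was lower. The Mdm2 relative Mdm4, which masks the activation domain of p53, had a difference of 0.11 (limma adjusted p = 0.607). Of its 4 probe sets 3 were higher, and the next brightest was lower, at −0.11. Ppm1d, the Wip1 phosphatase that switches off p53 and its kinases, had a difference of −0.08 (limma adjusted p = 0.796). Its second probe set, nearly as bright, had −0.29. There the levels were 6.72, 6.48 and 6.94 in deleted samples, against 7.01, 7.05 and 6.96 in floxed samples. Trp53inp1, a stress protein induced by p53, stood at 10.58 in deleted sample 3 and at 9.77 and 9.82 in deleted samples 1 and 2, around a floxed mean of 9.99 ± 0.12 (SD, n = 3), and its difference was 0.07.

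The genes of arrest and stress went apart. Of 10 members 5 were higher and 5 lower, the median was 0.09, and both the higher and the lower side held 2 members with an unadjusted p under 0.05. Over all genes 7.96% were higher and 6.84% lower at that level. Cdkn1a had levels of 6.34, 6.13 and 6.40 in deleted samples, against 5.46, 5.80 and 6.09 in floxed samples. The groups were separate, with deleted sample 2 only just above floxed sample 3. The difference was 0.50 ± 0.17 (SE), 1.42-fold (limma adjusted p = 0.224), and its second probe set had 0.49.

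Zmat3, an RNA-binding protein and p53 target, had levels of 6.13, 6.13 and 6.33 in deleted samples, against 5.52, 5.74 and 5.85 in floxed samples. All deleted samples were above all floxed ones. The difference was 0.50 ± 0.12 (SE), 1.41-fold (limma adjusted p = 0.117). Zmat3 was measured by 1 probe set, so no second reading was at hand. The same holds for Plk3, Pmaip1, Bbc3, Phlda3 and Eda2r below.

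Plk2, a polo-like kinase of centriole duplication that p53 and other stress signals induce, had levels of 7.44, 6.58 and 6.62 in deleted samples, against 7.92, 7.97 and 8.56 in floxed samples. The groups were separate, and deleted sample 1 was the nearest to the floxed group. The difference of −1.27 ± 0.27 (SE) was the largest in size of all members, 2.41-fold lower in deleted samples (limma adjusted p = 0.0837). Plk3, a related kinase of the stress response, had levels of 5.66, 5.84 and 5.22 in deleted samples, against 6.62, 5.90 and 6.79 in floxed samples. Floxed sample 2 stood only just above deleted sample 2. The difference was −0.86 ± 0.26 (SE), 1.82-fold lower (limma adjusted p = 0.181).

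The other 6 members of this role had an unadjusted p of 0.05 or more, and the groups overlapped in all 6. Ccng2, a cyclin of quiescent cells, had a difference of 0.46, but floxed sample 2 at 8.70 lay inside the deleted range of 8.53 to 8.86. The Gadd45 genes, which encode small stress sensors that bind p21 and stress kinases, were split: Gadd45b had 0.29, Gadd45g 0.27 and Gadd45a −0.18. Without floxed sample 1, Gadd45b had 0.12, Gadd45g 0.0038 and Ccng2 0.24. For Gadd45a deleted sample 3 stood alone at 7.38, against 7.97 to 8.09 in floxed samples. Sesn1, a sestrin that restrains mTORC1, was the most variable, at 9.98, 10.88 and 9.46 in deleted samples, against 10.94, 10.39 and 10.36 in floxed samples. Its difference of −0.45 had a 95% interval from −1.26 to 0.35, and 1 of its 4 probe sets was higher. Leaving out a sample moved it between −0.84 and −0.13. The sestrin Sesn3 had a difference of −0.10.

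**Figure D2:**
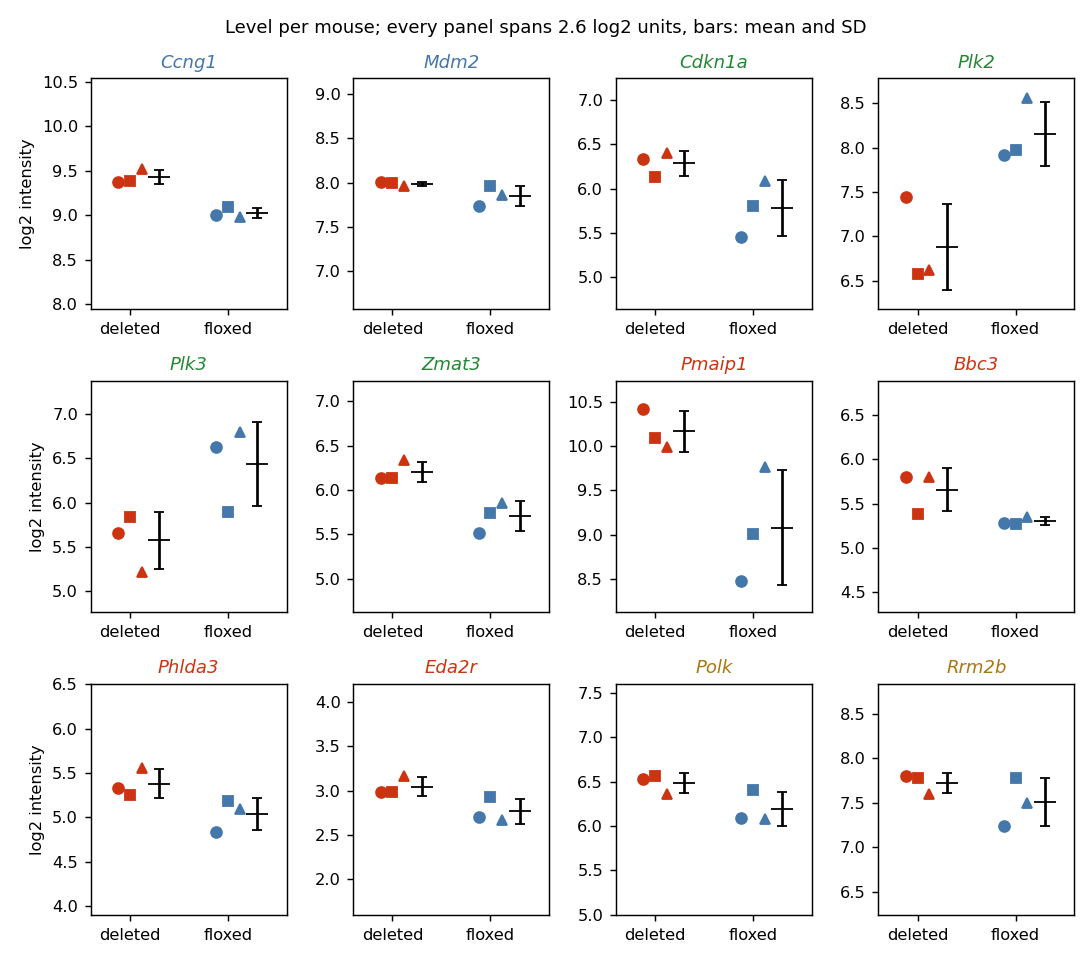
Log2 intensity of 12 members in 3 Crebbp-deleted and 3 Crebbp-floxed mice; circle, square and triangle are replicates 1, 2 and 3, black bars are the mean and SD, title colours give the role, and every panel spans 2.6 log2 units. Pmaip1 and Plk2 have the widest gaps between the means, and floxed mouse 1 is the lowest floxed point for Cdkn1a, Zmat3 and Pmaip1.

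Apoptosis genes were higher in 8 of 11 members, with a median of 0.10. Of the 11, 4 had an unadjusted p under 0.05, all of them higher in deleted samples. Over all genes 7.96% were higher and 6.84% lower at that level. Pmaip1 encodes Noxa, a BH3-only protein that binds Mcl1. Its levels were 10.42, 10.09 and 9.99 in deleted samples, against 8.48, 9.01 and 9.76 in floxed samples. The floxed samples were spread widely and floxed sample 3 came near the deleted group. The difference was 1.08 ± 0.30 (SE), 2.12-fold (limma adjusted p = 0.161). Without floxed sample 3 it was 1.42 and passed (limma adjusted p = 0.0296), and this was the only call among the members in any setting tried.

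Bbc3, which encodes the BH3-only protein Puma, had levels of 5.80, 5.38 and 5.80 in deleted samples, against 5.28, 5.28 and 5.35 in floxed samples. Deleted sample 2 was barely above the floxed range. The difference was 0.36 ± 0.13 (SE), 1.28-fold (limma adjusted p = 0.263).

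Phlda3, which competes with the kinase Akt for membrane lipids, had levels of 5.33, 5.25 and 5.56 in deleted samples, against 4.84, 5.19 and 5.09 in floxed samples. Its difference was 0.34 ± 0.13 (SE; limma adjusted p = 0.279). Eda2r, an X-linked receptor of the tumour necrosis factor family, had levels of 2.98, 2.98 and 3.17 in deleted samples, against 2.71, 2.92 and 2.67 in floxed samples, a difference of 0.28 ± 0.11 (SE; limma adjusted p = 0.291). In both genes the groups were separate. Eda2r was dim: it, the death receptor Tnfrsf10b and the membrane protein Perp were the 3 members whose mean lay under 4.29, the median of all probe set means, and the size of their differences is uncertain.

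The remaining apoptosis genes had unadjusted p-values of 0.05 or more. Tnfrsf10b had a difference of 0.19, with deleted sample 1 at 3.80 and all other samples from 3.30 to 3.46. Perp had 0.10, the apoptosome scaffold Apaf1 0.09 and the membrane protein Ei24 of the endoplasmic reticulum 0.04. Trp53bp2, whose product ASPP2 binds p53 and directs it to apoptosis genes, had −0.01 with a 95% interval from −0.22 to 0.20. The nuclease Aen had −0.12, and Casp8, the initiator caspase of death receptors, had −0.24 with a 95% interval from −0.52 to 0.05.

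Repair genes were evenly divided, with 2 of 4 members higher and a median of 0.06. Polk, a DNA polymerase that copies past damaged bases, had levels of 6.53, 6.56 and 6.36 in deleted samples, against 6.09, 6.41 and 6.08 in floxed samples. The groups overlapped, since floxed sample 2 was above deleted sample 3. The difference was 0.29 ± 0.12 (SE; limma adjusted p = 0.322), and its second, dimmer probe set had −0.03.

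Rrm2b, the ribonucleotide reductase subunit p53R2, had levels of 7.80, 7.78 and 7.60 in deleted samples, against 7.24, 7.78 and 7.50 in floxed samples. Those groups overlapped as well, and the difference was 0.22 (limma adjusted p = 0.548), or 0.085 without floxed sample 1. Its dimmer probe sets had 0.01, −0.11 and 0.09. The nucleotide excision repair genes Ddb2, which recognises damage from ultraviolet light, and Ercc5, which cuts beside it, had differences of −0.09 and −0.10.

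Samples within a group were not alike in these genes. Floxed sample 1 was the lowest of its group in 17 of the 30 members, against 5 for floxed sample 2 and 8 for floxed sample 3. The median deviation of the 30 members from their floxed means was 0.13, 0.09 and 0.10 in deleted samples 1 to 3, against −0.07, 0.06 and 0.04 in floxed samples 1 to 3. In the arrest and stress genes it was 0.29, 0.09 and 0.01 in deleted samples, against −0.25, 0.04 and 0.16 in floxed samples, so floxed samples 2 and 3 lay within the range of the deleted ones. Without floxed sample 1 the median difference of the members was 0.05. Leaving out 1 sample moved the difference by over 1.5 times in 19 of the 30 members, 13 of them with floxed sample 1 left out. The 10 members with an unadjusted p under 0.05 were not among the 19. A low p picks genes that differ beyond their spread in these same arrays, so this is no separate sign of stability. Without floxed sample 1, Cdkn1a fell from 0.50 to 0.34. Floxed sample 3 stood apart in another list: it was the highest of all samples in 15 of 15 cell cycle genes.

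**Figure D3:**
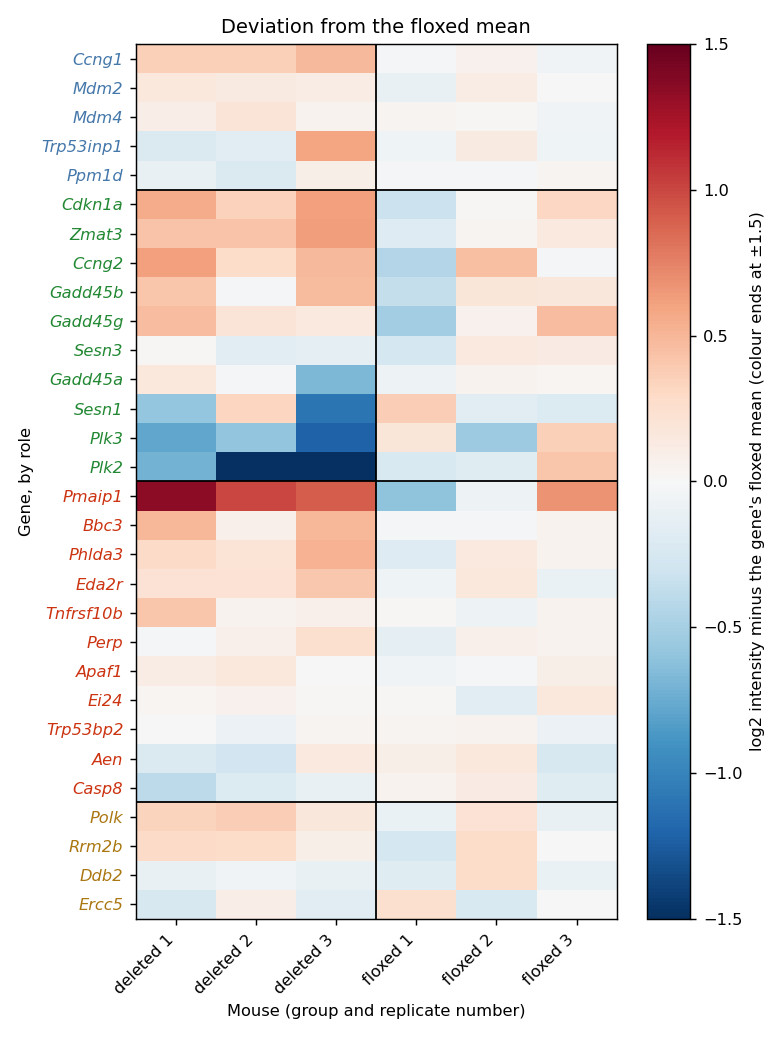
Log2 intensity of the 30 measured members in each mouse minus the gene's mean over the 3 Crebbp-floxed mice, by role, with deleted mice on the left. Pmaip1, Cdkn1a, Zmat3 and Ccng1 are red in all 3 deleted mice and Plk2 and Plk3 are blue in them, while floxed mouse 1 is blue in 21 of 30 rows.

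Floxed sample 1 was also the single male of its group. The labels do not give the sexes; by Xist and 3 Y-linked genes, deleted samples 1 and 3 and this sample came from males and the remaining 3 from females. With sex as a term 8 members had an unadjusted p under 0.05 and 0 passed after adjustment. The fits within a sex set 2 deleted males against 1 floxed male, and 1 deleted female against 2 floxed females, and assume that the lone sample varies like the others. Cdkn1a had a difference of 0.91 within males and 0.18 within females, Pmaip1 1.73 and 0.70, Bbc3 0.52 and 0.07, Phlda3 0.60 and 0.11, and Zmat3 0.72 and 0.34. Ccng1 had 0.44 and 0.35. Plk3 had −1.18 and −0.50, whereas Plk2 had −0.89 within males and −1.69 within females. Whether any difference depends on sex was not tested.

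Markers of other cells were also set against each other in these samples. Over all genes 0.781% passed limma's test and 14.8% had an unadjusted p under 0.05. All 13 plasma cell markers were higher, 1 of them past limma's test and 11 at an unadjusted p under 0.05, with a summed intensity from 13683 to 23802 in deleted samples, against 7246 to 8096 in floxed samples. Of 14 measured macrophage markers 13 were higher, 0 passed and 9 had an unadjusted p under 0.05, and the ranges overlapped (1734 to 4038 in deleted samples, against 592 to 1889 in floxed samples). All 5 measured B cell markers were lower, 1 of them past the test (14632 to 15557 in deleted samples, against 17870 to 21056 in floxed samples), although they were abundant in every sample. All 11 heat shock genes were higher, 3 of them past the test (34054 to 43518 in deleted samples, against 16720 to 26074 in floxed samples), as were 9 of 10 immediate early genes, 1 of which (Atf3) passed and whose ranges overlapped (28083 to 32763 in deleted samples, against 22690 to 31044 in floxed samples). T cell, NK cell, neutrophil and erythroid markers had overlapping ranges and 0 of them passed limma's test or had an unadjusted p under 0.05. The part of these cells and of stress during handling in the differences above was not tested, and in bulk RNA a change in the mix of cells and a change per cell cannot be told apart.

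Crebbp itself, at the probe set with the highest mean, had levels of 9.59, 9.41 and 9.35 in deleted samples, against 10.04, 9.87 and 9.95 in floxed samples (difference −0.50, limma adjusted p = 0.0776). Where that probe set lies relative to the deleted part was not analysed here. Its coactivator partner in acetylating p53, Ep300, had a difference of 0.26 (limma adjusted p = 0.433). Among the 23 measured genes upstream of p53 or modifying it, 10 were higher and 13 lower and 0 passed limma's test. Of these 6 had an unadjusted p under 0.05, against 14.8% of all genes. Of the 6, 2 were higher and 4 lower, and the 4 include Crebbp itself, the gene deleted by design. After Crebbp the smallest p-values were those of Kat5, the acetyltransferase Tip60, which stood at 7.45, 7.62 and 7.59 in deleted samples, against 8.01, 7.91 and 7.98 in floxed samples (difference −0.41, adjusted p = 0.095), and of Atr, the kinase of replication stress, with −0.38 (adjusted p = 0.0991). The damage kinases Atm and Chek2 had differences of −0.02 and −0.06.

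Among 31 measured further p53 targets 19 were higher and 12 lower, with a median of 0.05. Of these 1 rose and 0 fell, against 0.544% and 0.236% of all genes past limma's test. An unadjusted p under 0.05 was found in 7, against 14.8% of all genes. The gene that rose was Atf3, a stress-induced transcription factor, with levels of 9.27, 8.54 and 8.89 in deleted samples, against 6.12, 6.65 and 6.94 in floxed samples (difference 2.33 ± 0.25, SE; limma adjusted p = 0.0148). Many stress signals besides p53 induce Atf3. Ephx1, an epoxide hydrolase, had a difference of −0.85 (adjusted p = 0.0799), Fbxw7, a ubiquitin ligase subunit, one of 0.41 (adjusted p = 0.155) and Pltp, a phospholipid transfer protein, one of 1.33 (adjusted p = 0.167). Ddit4, an mTORC1 inhibitor named after its values were seen, had a difference of −1.22 with overlapping groups (adjusted p = 0.233). The further p53 targets held large differences in both directions, as the members did.

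**Figure D4:**
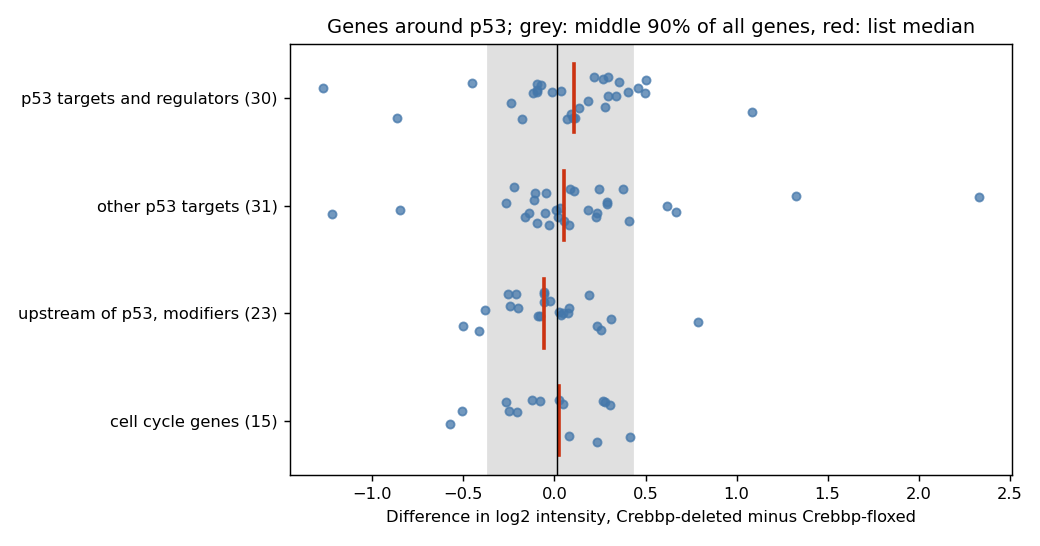
Differences in log2 intensity, Crebbp-deleted minus Crebbp-floxed, of the 30 members and of 3 related lists, 1 point per gene, jittered vertically; red bars are list medians (0.11, 0.05, −0.06 and 0.02 from top to bottom), the black line is the median of all genes and the grey band runs from −0.37 to 0.43, the middle 90% of all genes. The farthest points are Atf3 at 2.33, Pltp at 1.33, Pmaip1 at 1.08 and, on the lower side, Plk2 at −1.27 and Ddit4 at −1.22.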

How the data were processed

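The deposited values are intensities of Affymetrix probe sets in splenic B cells of 6 mice; per the submitters' processing notes they were made with RMA (version not given in the sources used here). Deposited values run from 2.96 to 17022, so they were read as linear intensities and log2-transformed, without normalizing again. Precision is limited by having 3 arrays per group.

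Of 45101 probe sets 34958 had 1 symbol, 932 several and 9211 none in the annotation used. Only the first were used, without the 64 controls, and dim probe sets were kept. Deleted and floxed samples were compared with limma 3.58.1 (R 4.3.3; lmFit, eBayes, two-sided, no covariates). The fit was tested on simulated data. The members, roles and lists were chosen with earlier results of these data known, so no list was tested. Values in every sample are given for members with an unadjusted p under 0.05, Cdkn1a, Mdm2 and the 2 smallest p-values of each role. For the 3 related lists, genes that passed and up to 3 more with the smallest p are named; Ep300, Atm, Chek2 and other members shown were chosen after their values were seen. Alternatives covered normalization, dim probe sets, the choice of probe set, limma settings, sex, the replicate number and each sample left out. Per the series' design text the samples come from separate mice.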

Additional observations from a re-analysis of the deposited data

How the results depend on the processing

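Under most alternatives the members' results were close to those given: limma passed 0 of 30 members in every setting that kept all samples, and between 0 and 1 when a sample was left out (Pmaip1 without floxed sample 3). The number of members with an unadjusted p under 0.05 was 8 to 10 in the settings with all samples in 1 comparison. It was 5 to 11 when a sample was left out. The fits within a sex leave 1 sample in a group, and their member counts lay outside the range of 8 to 10, 1 below it and 1 above it. The count over all genes was 37 with sex as a term, 0 within females and 0 within males (limma; 1237 and 1798 genes at an unadjusted p under 0.05), and 0 to 226 when a sample was left out, with 0 and 1990 at an unadjusted p under 0.05 without floxed sample 1. The median difference of the members was 0.24 within males, 0.065 within females and 0.054 to 0.14 when a sample was left out. With the replicate number as a replicate block 126 genes and 0 members passed. Same-numbered samples had correlations of 0.03, 0.10 and 0.01 in their deviations from the group means. Deleted samples 1 and 2 correlated best with the floxed sample of the same number. Deleted sample 3 correlated best with floxed sample 1 (0.08), and both came from males by Xist and the Y-linked genes. The labels do not say whether the numbers pair the samples, and correlations this small cannot decide it. The sign changed in 24 of 420 combinations of member and setting, in 13 members (5 further settings leave the differences as they are and are not counted), of which only Polk had an unadjusted p under 0.05. With the mean of all probe sets Mdm2 had −0.036 and Sesn3 0.010. With the probe set of highest variance Mdm2 had −0.37, Sesn1 0.090, Sesn3 0.12, Trp53bp2 0.013 and Polk −0.029. Normalizing by quantiles again gave Trp53bp2 0.015. Within females Trp53inp1 had −0.20, Gadd45b −0.19, Gadd45g −0.072, Sesn1 0.51 and Ercc5 0.22, and within males Ppm1d had 0.022, Sesn3 0.21 and Ddb2 0.064. Leaving out a sample gave −0.058 to 0.022 for Trp53bp2, −0.19 to 0.21 for Trp53inp1, −0.35 to 0.065 for Gadd45a, −0.21 to 0.022 for Ercc5, −0.050 to 0.11 for Ei24, −0.18 to 0.044 for Ddb2, and, with no change of sign, 0.077 to 0.19 for Mdm2, 0.072 to 0.15 for Mdm4, −0.16 to −0.0070 for Ppm1d, 0.24 to 0.68 for Ccng2, 0.12 to 0.44 for Gadd45b, 0.0038 to 0.50 for Gadd45g, −0.23 to −0.021 for Sesn3, −0.25 to −0.034 for Aen, 0.068 to 0.25 for Tnfrsf10b, 0.028 to 0.16 for Perp, 0.059 to 0.14 for Apaf1 and 0.085 to 0.36 for Rrm2b. The cause of these changes was not tested. Signals near background, such as those of Eda2r, Tnfrsf10b and Perp, limit how far their differences can be read.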

Other observations

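Genes of DNA replication and mitosis that p53 lowers through p21 and the DREAM repressor complex differed more between single mice than between the groups. The mean log2 intensity of the 15 measured genes was 5.57, 5.59 and 6.20 in deleted samples 1 to 3, against 5.40, 5.29 and 6.75 in floxed samples 1 to 3. Floxed sample 3 was the highest of all 6 samples in 15 of the 15 genes, and deleted sample 3 was the highest deleted sample in 15. Of these genes 8 were higher and 7 lower in deleted samples, with a median difference of 0.02. Without floxed sample 3, but with deleted sample 3 kept, the median difference of these genes was 0.30. Limma passed 0 of them, and 2 (13.3%) had an unadjusted p under 0.05, a share near the 14.8% of all genes. Plk4, the kinase of centriole duplication, had levels of 5.49, 5.52 and 5.73 in deleted samples, against 5.92 to 6.54 in floxed samples, a difference of −0.57 (limma adjusted p = 0.186). Mcm5, a subunit of the replicative helicase, differed by −0.51 (adjusted p = 0.251). Aurka, a mitotic kinase, differed by −0.21 (adjusted p = 0.702). The summed intensity of the list was 1033, 1123 and 1608 in deleted samples, against 1045, 1041 and 2526 in floxed samples, so the upper end of the floxed range came from floxed sample 3 alone. Among genes upstream of p53, Cdkn2a, the locus of the Mdm2 inhibitor Arf and of the cell cycle inhibitor p16, was dim and had a difference of 0.79 (limma adjusted p = 0.221). Its levels were 4.02, 4.35 and 3.40 in deleted samples, against 3.00, 2.89 and 3.51 in floxed samples, and deleted sample 3 lay below floxed sample 3.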
